A study of Mus musculus with 16 samples.

Results

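Pou5f1 encodes Oct4, a POU-family transcription factor that is required for pluripotency and is silent in fibroblasts. In embryonic stem cells its transcription is driven by a proximal promoter together with a distal and a proximal enhancer that lie upstream of it, and in somatic cells methylation of the promoter and enhancers is a known mark of the silent gene. Removal of this methylation is a classic readout of reprogramming. The locus was taken as all CpG sites listed between positions 35813000 and 35823000 of mouse chromosome 17 (GRCm39), which holds the gene from 35816929 to 35821669 on the plus strand and the sequence before and after it. Each strand of a CpG has its own entry in the tables, and a site here means a single strand. The window was chosen by position, after an earlier look at these data had shown adjacent 1-kb tiles here at a lower level in induced pluripotent stem cells (iPSCs) than in fibroblasts. That contrast is therefore given as a description with no test. Tests of D12 against iPSCs use the same iPSC libraries, and tests against D0 use the same fibroblast libraries. They are therefore not free of that earlier look. Of 3179510 sites listed in any library, 139 fell in the window, and 69 of these were listed, with at least 10 reads, in each of the 16 libraries. These 69 are called the common sites of the window. Of the remaining sites, 31 were listed in a single library and 39 in 2 to 15 libraries.

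The assay was reduced representation bisulfite sequencing (RRBS), which cuts DNA with MspI at CCGG and reads methylated cytosines as C and unmethylated ones as T. The groups were fibroblasts (D0), cells after 2, 4, 6, 8, 10 and 12 days in reprogramming medium (D2 to D12), and iPSCs, with 2 libraries each. D0 cells were mouse embryonic fibroblasts (MEFs) of passages 1 to 3 from 129XOG2 embryos at E13.5, and every sample is labelled with that strain and source. The iPSCs were kept on feeder cells with mLIF, CHIR99021 (a GSK3 inhibitor) and PD0325901 (a MEK inhibitor), and the labels name neither their passage nor the number of clones, nor whether feeder cells were removed. The OG2 strain carries a green fluorescent reporter driven by Pou5f1 sequence, so reads from the reporter and from the endogenous gene can map to the same positions and cannot be told apart in these tables. Each level below is over both. A library summed between 39011213 and 107834007 reads over its sites, with a median of 18 to 27 reads per site, while the common sites of the window had 11 to 1333 reads.

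RRBS reached the body of the gene far better than its regulatory sequence. All 69 common sites lay between 144 and 4280 bases past the gene start, 10 of them within 250 bases of it. None lay upstream. Of the sites listed in at least 1 library, 4 lay more than 2500 bases upstream, 2 lay 1500 to 2500 bases upstream and 7 lay 500 to 1500 bases upstream, with 10 to 22 reads, so the enhancers were not measured at a depth that allows a comparison between groups. The promoter is shown because its CpGs are what the shallow sites read. The RefSeq promoter table (GRCm38.p6) gives the sequence 5′ to 3′, and the CpGs listed in at least 1 library are in capitals.

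Pou5f1, the 250 bases before the start: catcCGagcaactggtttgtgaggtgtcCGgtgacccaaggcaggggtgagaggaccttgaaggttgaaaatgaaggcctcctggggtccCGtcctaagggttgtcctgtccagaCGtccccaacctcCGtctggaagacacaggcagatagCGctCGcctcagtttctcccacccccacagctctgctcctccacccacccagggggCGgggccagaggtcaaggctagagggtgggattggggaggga

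The entry runs on for 50 bases past the start, and its 300 bases hold 11 CpGs. Each of these 11 was listed in at least 1 library at the matching distance from the gene start, and at any other offset of up to 40 bases at most 2 matched. The 8 CpGs before the start are those in capitals. MspI sites (CCGG, which reads the same on both strands) occur 2 times in the 300 bases, and 52.8% of the 32851 promoters of that table hold at least 1.

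At the promoter, levels were intermediate and the depth was low. The CpGs read most often were those 97 and 93 bases upstream, both on the reverse strand and each listed in 13 libraries. The site 97 bases upstream (35816832) was at 74.2% of 31 reads in D0 replicate 1 (95% Wilson interval 56.8 to 86.3). It was at 66.7% and 100% at D4, at 43.2% and 40% at D12 (28.7 to 59.1 and 19.8 to 64.3), and at 50.0% and 20.0% in iPSCs (28.0 to 72.0 and 5.67 to 51.0). The intervals of the D12 and iPSC libraries overlap. The site 93 bases upstream (35816836) went from 40% at D0 (24.6 to 57.7) to 83.3% and 76.5% at D4 and to 59.5% and 37.5% at D12, with no lower level at D12 than at D0 that this depth could show. In the MspI site itself, the reverse-strand cytosine 221 bases upstream was at 33.3% in D0 replicate 1 (17.2 to 54.6), 31.6% in D6 replicate 2 and 81.8% and 68.8% at D12 (61.5 to 92.7 and 44.4 to 85.8). These intervals cover counting error only. Fragment ends were filled in with added nucleotides before conversion, per the labels' protocols. Whether this affects the cytosine in the MspI site was not tested. The reverse-strand sites at -41, 11, 26 and 45 bases from the start were at 29.4%, 50.0%, 47.1% and 17.6% in D0 replicate 1. In D12 replicate 1 they were at 57.1%, 63.2%, 68.4% and 66.7%. The last of these also lies in an MspI site. D0 was listed in 1 library at each of the sites named here, so D0 and D12 were not compared over libraries.

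In the body of the gene methylation was high in fibroblasts, and the pooled level was below D0 in each library from D8 on. The pooled level did not fall further from D10 to D12, and the loss was incomplete at D12. Pooled over the reads of the 69 sites, methylation stood at 68.3% and 69.4% at D0, at 67.2% and 66.6% at D2, and 70.3% and 72.1% at D4. It was 61.5% and 68.5% at D6, 58.9% and 54.2% at D8, 40.3% and 41.6% at D10, and 43.6% and 40.4% at D12. The D10 and D12 libraries overlapped, while each of them lay below each D8 library. D12 differed from D0 by -26.9 points ± 1.7 (SE, n = 2 and 2; exact two-sided permutation p = 0.333, the smallest that 2 libraries against 2 allow). The D12 mean was 61.0% of the D0 mean, and over all 873038 sites common to the 16 libraries it was 30.2%. Since the tile from 35818001 to 35819000 held 47.7% of the reads in the window, the unweighted mean over sites is given too. It was 74.6% ± 0.21 (SD, n = 2) at D0, 53.1% ± 1.5 at D12 and 43.4% ± 0.64 in iPSCs.

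**Figure D1:**
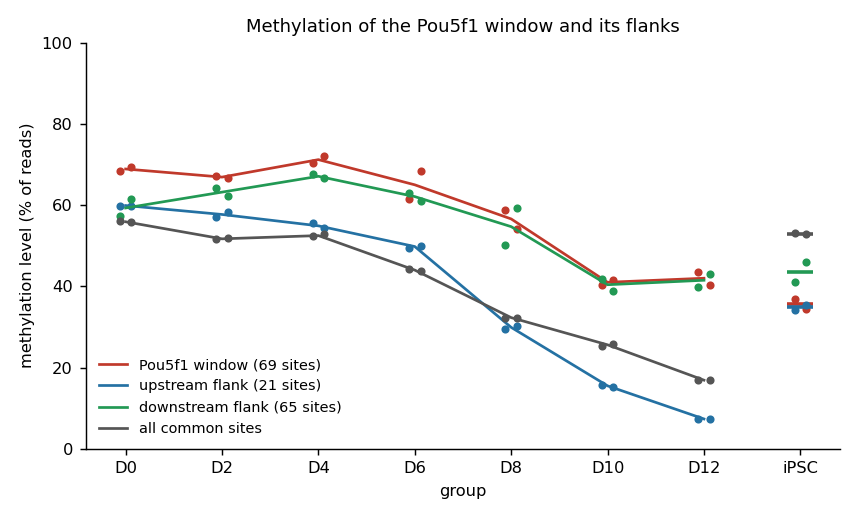
Methylation level (percent of reads, y axis) by group (x axis) in the Pou5f1 window, in the 50 kb upstream and downstream of it, and over all common sites. Points are libraries, lines join the group means from D0 to D12 and bars mark the iPSC mean. The window stood at 42.0% at D12 and 35.7% in iPSCs, while all common sites went from 16.9% to 53.0%.

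The iPSC libraries were at 37.0% and 34.5%, below both D12 libraries and far below those of D0. Their mean differed from that of D12 by -6.26 points ± 2.1 (SE; exact two-sided permutation p = 0.333), and from that of D0 by -33.1 points ± 1.4. Over all common sites the direction between D12 and iPSCs was the opposite, from 16.9% ± 0.053 (SD, n = 2) to 53.0% ± 0.18. Low levels were not the rule within the gene. In iPSCs 5 of the 69 sites were under 20% and 1 was at 80% or more, against 38.8% and 33.5% of all common sites. The sites under 20% include lower strands of CpGs whose strands lay far apart, which are described below. In fibroblasts 34 of the 69 had been at 80% or more (38.9% of all common sites), and at D12 it was 8 (0.124% of all).

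Site by site, the direction was mixed. At D2, 28 of the 69 sites had both libraries below both D0 libraries (23.7% of all common sites) and 3 had both above (9.63%). At D4 it was the reverse, with 7 below (18.9% of all) and 16 above (15.3%). At D12, 52 of 69 had both libraries below (64.7% of all) and 12 had both above (7.41%). The 12 above include lower strands of CpGs whose strands lay far apart, which are described below. Both iPSC libraries lay below both D12 libraries at 37 of 69 sites (9.47% of all) and above them at 14 (60.1%), and below both D0 libraries at 62 of 69 (29.6%). Sites on the same fragment share reads, so these counts are not independent.

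Single 1-kb tiles of the window were tested in a fit of 94337 tiles over the whole genome by edgeR's quasi-likelihood test with Benjamini-Hochberg adjustment. A tile was called at an adjusted p under 0.05 and a difference of at least 10 percentage points. The ± beside a tile's difference is an SE from the levels of the 2 libraries in each group. It does not come from the edgeR fit that gave the p-value. The gene spans 5 tiles with at least 3 common sites, from 35817001 to 35822000, and they did not move together. No window tile was called at D2 (0.0488% of all tiles lower) or D4 (0.0763%), and none had an unadjusted p under 0.05 in edgeR. Lower calls numbered 1 of 5 at D6 (21.3% of all tiles), 3 at D8 (72.3%), 4 at D10 (81.6%) and 4 at D12 (82.7%). Between D12 and iPSCs, 2 were called lower in iPSCs (1.48% of all tiles) and 1 higher (79.8%). The locus had been noticed as low in these iPSC libraries, so the lower calls are not independent of its choice.

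**Figure D2:**
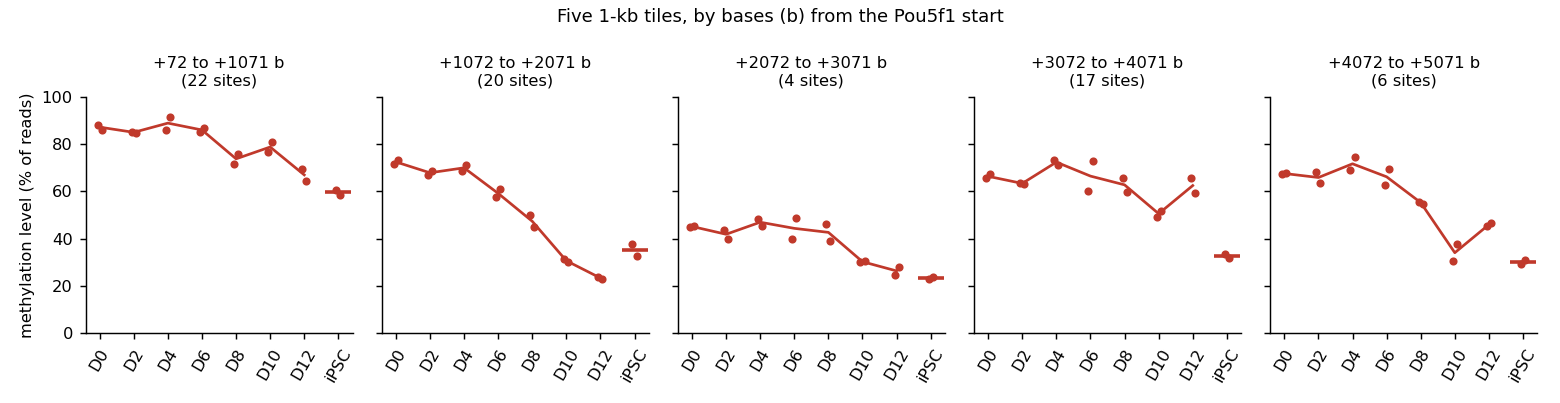
Methylation level (percent of reads, y axis) by group (x axis) in the 5 tiles of the gene, ordered by distance from its start. Points are libraries, lines join the means of D0 to D12 and bars mark the iPSC mean. The tile that starts 1072 bases past the gene start fell to 23.3% at D12, while the one that starts 3072 bases past it was at 62.4%.

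The first tile (35817001 to 35818000, 22 common sites from 144 to 552 bases past the start, 720 to 2493 reads per library) was the most methylated part of the gene in fibroblasts. It was at 88.1% and 86.1% in the D0 libraries, 85.1% and 84.7% at D2, 86.0% and 91.5% at D4, and 85.1% and 86.6% at D6. It was at 71.7% and 75.7% at D8, 76.6% and 80.8% at D10, 69.6% and 64.2% at D12. The iPSC libraries were at 60.7% and 58.4%. The D8 to iPSC libraries all lay below those of D0, and the step at D10 was upward, with no test made between D8 and D10. The tile was called lower at D8 (-13.4 points ± 2.3, edgeR adjusted p = 0.00198) and D12 (-20.2 points ± 2.9, adjusted p = 0.000112). At D10 the difference of -8.44 points was under the minimum of 10 (adjusted p = 0.0131), but it was called there without D10 replicate 2 (-10.5 points) and when strand-discordant CpGs were left out (-11.0 points). It kept 76.8% of its D0 level at D12. Of the 66731 tiles at 50% or more at D0, 0.247% kept as large a share, and their median was 26.1%. From D12 to iPSCs it differed by -7.37 points ± 3.0 (adjusted p = 0.146), which was not called.

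The second tile (35818001 to 35819000, 20 sites from 1312 to 2019 bases past the start, 3416 to 10760 reads per library) lost most by D12 and was the first to be called. It was at 71.6% and 73.2% at D0, 67.0% and 68.5% at D2, 68.6% and 71.1% at D4, and 57.4% and 60.8% at D6. It was at 49.8% and 44.9% at D8, 31.3% and 29.9% at D10, 23.8% and 22.9% at D12. The iPSC libraries were at 37.6% and 32.6%. The libraries of each day from D6 on lay below all libraries of the days before. The D6 difference was -13.3 points ± 1.9 (edgeR adjusted p = 0.011), and this call was lost without D0 replicate 1, D0 replicate 2 or D6 replicate 1, where the difference was -14.1, -12.5 and -11.6 points (adjusted p = 0.0629, 0.0821 and 0.0635). It was also lost with sites common to D0 and D6 (-12.9 points, adjusted p = 0.067), a fit that called 0 of 123623 tiles. At D12 it was -49.0 points ± 0.92 (adjusted p = 8.73e-08). The tile kept 32.2% of its D0 level, which 32.3% of tiles at 50% or more at D0 reached. From D12 to iPSCs it was called higher by 11.7 points ± 2.5 (adjusted p = 0.00096). That call was lost without iPSC replicate 1 (9.26 points) and when the sites of highest coverage were left out (8.24 points), since both fell under 10.

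The third tile (35819001 to 35820000, 4 sites, 550 to 2410 reads per library) was already intermediate in fibroblasts, at 44.7% and 45.5%. It was at 43.8% and 39.8% at D2, 48.4% and 45.4% at D4, 39.8% and 48.8% at D6 and 46.0% and 39.1% at D8. It was at 30.0% and 30.4% at D10, 24.7% and 27.9% at D12. The iPSC libraries were at 22.8% and 23.9%. Lower calls began at D10 (-14.9 points ± 0.42, edgeR adjusted p = 0.00366), and D12 differed from D0 by -18.8 points ± 1.6 (adjusted p = 0.000549). Its 4 sites are both strands of 2 CpGs, and in each CpG the strands lay far apart. The low strands were at 11.0% and 13.8% in fibroblasts and the high strands at 80.2% and 76.3%, so the tile's level averages high and low sites. At D8 the high strands had fallen to 58.0% and 65.4%, while the low strands had risen to 23.3% and 23.3%. The tile's D8 difference of -2.51 points, which was not called, averages these opposite moves. At D12 the high strands were at 35.2% and 29.3% and the low strands at 20.4% and 21%. Single strands were not tested.

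The fourth tile (35820001 to 35821000, 17 sites from 3596 to 4049 bases past the start, 1472 to 4585 reads per library) was, pooled over its sites, the closest of the 5 to its D0 level at D12. It was far lower in iPSCs. It was at 65.5% and 67.1% at D0, 63.3% and 63.2% at D2, 73.2% and 71.3% at D4, and 60.2% and 72.6% at D6. It was at 65.7% and 59.7% at D8, 49.3% and 51.6% at D10, 65.4% and 59.4% at D12. The iPSC libraries were at 33.4% and 31.7%. The D10 libraries lay below those of D8 and of D12, and no test was made between them. The tile was called lower at D10 (-15.8 points ± 1.4, edgeR adjusted p = 0.0054), but at D12 the difference was -3.89 points ± 3.1 (adjusted p = 0.406). It was thus at 94.1% of its D0 level at D12, a share that 0.024% of the tiles at 50% or more at D0 reached. This level pools sites that moved differently. The forward-strand sites at 3991, 4009 and 4049 bases past the start differed by -25.79, -12.78 and -40.88 points from D0 to D12. The sites from 3596 to 3980 bases differed by -16.14 to 21.45 points. Single sites were not tested. Between D12 and iPSCs the tile differed by -29.9 points ± 3.1 (edgeR adjusted p = 5.88e-05).

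The fifth tile (35821001 to 35822000, 6 sites up to 4280 bases past the start, 430 to 1268 reads per library) covers the end of the gene. It was at 67.1% and 67.9% at D0, 68.3% and 63.3% at D2, 68.8% and 74.4% at D4, and 62.7% and 69.6% at D6. It was at 55.6% and 54.8% at D8, 30.3% and 37.8% at D10, 45.1% and 46.7% at D12. The iPSC libraries were at 29.3% and 30.8%. As in the fourth tile, D10 lay below D12 in both libraries, untested. It was called lower at D8 (-12.3 points ± 0.57, edgeR adjusted p = 0.0188), D10 (-33.5 points ± 3.8, adjusted p = 2.92e-05) and D12 (-21.6 points ± 0.89, adjusted p = 0.000484), and lower in iPSCs than at D12 (-15.8 points ± 1.1, adjusted p = 0.00374). The D8 call was lost without any 1 of the 4 libraries of D0 and D8, though the difference stayed between -12.7 and -11.9 points (adjusted p = 0.0501 to 0.0764). It kept 68.0% of its D0 level at D12, as much as 0.758% of tiles did. This level pools opposite moves. The site 4280 bases past the start went from 25.0% at D0 to 43.6% at D12, while the other sites differed by -42.02 to -21.69 points. The reverse strand of that CpG, listed in 10 libraries, was at 94.9% and 88.9% at D0 and 58.8% and 57.1% at D12. Single sites were not tested.

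Compared with fibroblasts, the mean of all 5 tiles was lower in iPSCs, with differences of -27.56, -37.3, -21.76, -33.74 and -37.45 points in the order above, and the median over all tiles was -1.76 points. These differences are given as a description, since they include the contrast that drew attention to the locus. In iPSCs the tiles stood at 68.4%, 48.5%, 51.8%, 49.1% and 44.5% of their fibroblast level.

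Single sites spread widely around these means. The largest falls from D0 to D12 lay between 1887 and 1907 bases past the start, in the second tile. The reverse-strand site at 35818817 went from 87.4% ± 0.49 (SD, n = 2) to 17.1% ± 2.6 and was at 40.9% ± 3.9 in iPSCs. Its neighbours at 35818836 (reverse) and 35818816 (forward) differed by -67.98 and -67.96 points. At the other end, the reverse-strand sites at 35817074, 35818242 and 35820526 were 23.09, 23.01 and 21.45 points higher at D12 than at D0. The first of these is the partner of the common site nearest the gene start, 35817073, which went from 87.9% ± 1.7 to 59.9% ± 2.4 on the forward strand, and its D0 libraries lay far apart (50.6% ± 17). The sites at 35818242 and 35820526 are the lower strands of CpGs whose strands lay far apart. Their other strands went from 100% to 94.2% and from 78.0% to 84.1%. The highest iPSC levels were 82.2% ± 10 at 35818241, 78.6% ± 3.0 at 35817173 and 77.3% ± 2.1 at 35817177. The lowest were 7.30% ± 3.9 at 35818947, 9.65% ± 0.022 at 35819086 and 10.1% ± 4.5 at 35819413, and these were at 10.8%, 11.0% and 13.8% in fibroblasts. At D12 they were at 20.3%, 20.4% and 21%, above both. Each is a single strand of a CpG whose other strand was far higher. Those other strands were at 86.6%, 80.2% and 76.3% in fibroblasts and at 52.1%, 41.1% and 33.6% in iPSCs.

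**Figure D3:**
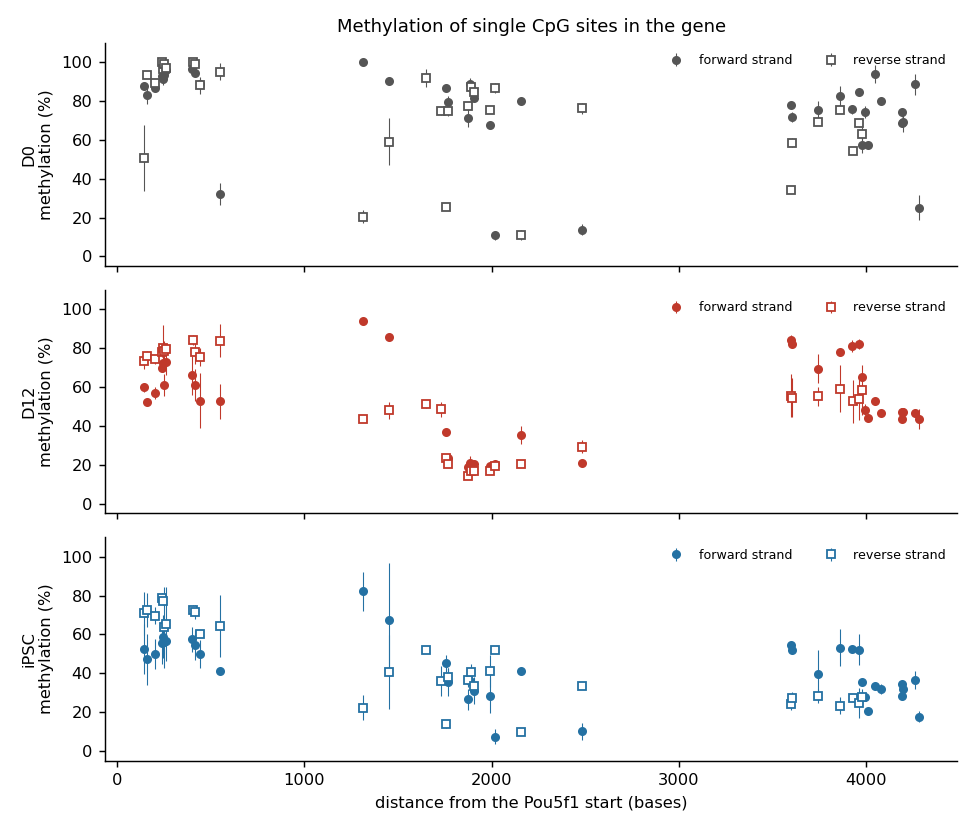
Methylation level (percent, y axis) of the 69 common sites by distance from the gene start (x axis, bases) at D0, D12 and in iPSCs. Points are means of 2 libraries and bars the SD, with filled circles for the forward and open squares for the reverse strand. Sites 1887 to 1907 bases past the start were at 16.9% to 20.9% at D12, while both ends of the gene kept higher levels.

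The strands of a CpG often disagreed. In 29 CpGs both strands were common sites, with a median gap of 13.0 points, close to the 12.1 points of 252823 such CpGs over the genome. In 8 of the 29 (27.6%) the gap averaged 30 points or more, against 22.6% over the genome, so strand discordance was not particular to the gene. In 6 of the 8 the same strand was the lower one in all 16 libraries, and in the others it was so in 15 and 14. At the CpG 2156 bases past the start, for example, the lower strand was at 11.0% at D0, 20.4% at D12 and 9.65% in iPSCs, and the higher strand at 80.2%, 35.2% and 41.1%. With these 8 CpGs left out the window was at 76.7% ± 0.64 (SD, n = 2) at D0, 43.8% ± 2.9 at D12 and 38.1% ± 2.6 in iPSCs. Per the labels' protocols, fragment ends were filled in with added nucleotides before conversion, and whether these CpGs lie at fragment ends was not tested.

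In the fourth tile the strands differed without such CpGs. Pooled over the reads of 6 CpGs from 3603 to 3980 bases past the start, the forward strand was above the reverse strand in 16 of 16 libraries. Of the single CpGs, 4 had this order in 16 libraries and that at 3742 in 15, while at 3979 the forward strand was the lower one in 9. The pooled forward level was at 71.7% ± 0.99 against 64.7% ± 1.1 (SD, n = 2) at D0, 75.0% ± 2.0 against 55.8% ± 11 at D12 and 45.3% ± 4.3 against 26.4% ± 4.1 in iPSCs. In the first tile the forward strand was above in 4 of 16 libraries, and its mean was below that of the reverse strand in each group from D4 on. Over 10 CpGs the forward strand was at 62.7% ± 4.9 and the reverse strand at 77.8% ± 0.44 at D12, and at 54.0% ± 8.2 and 70.2% ± 7.4 in iPSCs, after 90.9% and 90.8% at D0. In the second tile, over 5 CpGs, the forward strand was above in 6 of 16 libraries. It was at 78.3% against 80.5% at D0, 20.5% ± 1.0 against 16.8% ± 0.83 at D12 and 31.3% ± 6.2 against 38.2% ± 4.8 in iPSCs. These CpGs were grouped by tile after their values had been seen, and the cause was not tested.

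The 50 kb to either side differed from each other. The upstream flank (21 common sites) went from 59.9% ± 0.045 (SD, n = 2) at D0 to 7.35% ± 0.014 at D12 and 34.8% ± 0.87 in iPSCs. The downstream flank (65 sites) went from 59.3% ± 2.9 to 41.5% ± 2.3 and 43.5% ± 3.5. The window minus both flanks together was 9.38 points at D0 and 8.16 points at D12 (difference -1.22 points ± 3.2, SE; exact two-sided permutation p = 1.0, the libraries overlapped). This value depended on the setting, and its direction is therefore not given. It was -11.2 points with flanks of 25 kb, -9.98 points without strand-discordant CpGs and 12.8 points with the unweighted mean over sites (exact permutation p = 0.333 for each), and 1.82 points without D12 replicate 2. From D12 to iPSCs the window minus flanks differed by -14.6 points ± 4.6 (SE; exact two-sided permutation p = 0.333, the smallest possible). With flanks of 25 kb it was -4.59 points and the libraries overlapped (exact permutation p = 0.667), and it was -9.93 points without strand-discordant CpGs.

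Flank tiles differed in how much of their D0 level they kept at D12. No common site lay between 4280 bases and 8.063 kb past the gene start. A tile 8072 to 9071 bases past the gene start (35825001 to 35826000, 22 sites) was at 73.9% at D0, 54.9% ± 1.3 at D12 and 48.6% ± 2.8 in iPSCs, which is 74.3% of its D0 level at D12. The next tile with enough sites (35828001 to 35829000) was at 3.01%, 11.1% ± 2.2 and 5.95% ± 0.97. Farther out, the tile from 35852001 to 35853000 went from 84.3% at D0 to 16.3% ± 0.81 and back to 79.0% ± 1.9 in iPSCs, and the tile from 35800001 to 35801000 went from 92.8% to 6.36% ± 0.13 and to 51.4% ± 1.4. Other flank tiles stayed low in iPSCs. The tile from 35866001 to 35867000 went from 90.0% to 27.5% ± 12 and 23.5% ± 7.5, a difference between iPSCs and D0 of -66.58 points that is larger than in any tile of the gene. The tile from 35801001 to 35802000 went from 52.2% ± 6.3 to 15.5% ± 14 and 16.8% ± 1.1. In the RefSeq gene table (GRCm38.p6) the next gene after Pou5f1 is Tcf19, followed by Cchcr1. The gene before it is Gm32362, a long noncoding RNA. Which gene each flank tile lies in was not looked up, since the table is of another build.

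The gene was densely read, and so were its nearest flanks. The median coverage of the 69 sites was 2.23 to 3.93 times the median over all common sites of the library, and the median window site had more reads than 97.2% of all common sites. Relative to the flanks, the window had 1.05 to 1.96 times the coverage, with a median of 1.66. The ratio was 1.63 and 1.17 in the D0 libraries, 1.78 and 1.70 at D12, and 1.05 and 1.08 in iPSCs, where it was lowest. The ratio depended on the flanks. It was 1.07 with flanks of 25 kb, where it ranged from 0.726 to 1.39 and was below 1 in 5 libraries, and 2.84 with flanks of 200 kb. The flanks were themselves at 1.66 to 2.95 times the library median. By tile, and over the same library median of all common sites, the second was at 8.35 times at D0, 6.76 at D12 and 6.43 in iPSCs, and the fourth at 3.60, 4.05 and 2.34, while the first was at 1.21, 1.79 and 1.18. The tile 8072 bases past the start was at 2.93, 5.15 and 3.19. Coverage in RRBS also varies with fragment length and CpG content, so these ratios are not copy numbers, and how much reporter copies add to level or coverage was not tested.

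**Figure D4:**
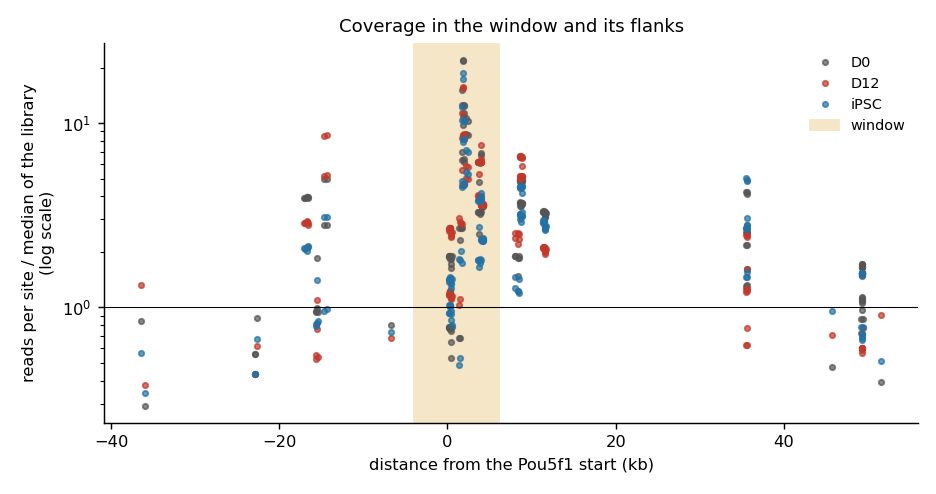
Reads per site over the median of the library (y axis, log scale) by distance from the gene start (x axis, kb) for the common sites of the window (shaded) and its flanks at D0, D12 and in iPSCs, with a point for each site and group (mean of 2 libraries) and a line at the library median. Taken as a median over the 16 libraries, window sites ranged from 0.747 to 17.5 times the library median.

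The tiles elsewhere in the genome whose 8 group means were most like those of the pooled window were sought among 65098 tiles with at least 5 common sites. The closest was on chromosome 15 (98012001 to 98013000), with a root mean square distance of 2.78 points and levels of 70.7% at D0, 61.5% at D8, 40.8% at D12 and 38.0% in iPSCs. A second tile of chromosome 15, from 100617001 to 100618000, was 4.14 points away and went from 66.6% at D0 to 36.2% at D12. On chromosome 9 the tile from 87722001 to 87723000 was 4.18 points away, with 69.8% and 37.1%. The tile from 4430001 to 4431000 on chromosome 8 was at a distance of 4.23 points. That from 35035001 to 35036000 on chromosome 4 had a distance of 4.49 points. Which genes lie there was not looked up.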

How the data were processed

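The submitters' processing notes name GRCm39 as the build, and fastp 0.20.1, Bismark 0.23.0, Bowtie2 and methylKit, without settings. The authors' deposited tables give, per library and CpG strand, the coverage as a count of reads and the percent of reads called C. Sites under 10 reads are not listed. Methylated read counts were recovered from coverage and percent, and 0 values were not whole within the rounding of the printed percent. There are no molecular identifiers.

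The window and gene limits were set by position, and the members and lists were chosen with earlier results of these data known. Levels are methylated over all reads at common sites. Tiles of 1 kb with at least 3 common sites entered edgeR 4.0.16 (R 4.3.3), with library terms, group terms for methylated reads and 1 shared dispersion, on all 16 libraries with 8 residual degrees of freedom. All window tiles are named, and named sites are those nearest the start, with the 3 largest and 3 smallest differences between D12 and D0, and the 3 lowest and 3 highest in iPSCs. Exact permutation tests ran over libraries. The fit was tested on simulated data. The labels do not say that replicates were separate cultures, so the spread behind each p-value may be technical. Between replicates the chi-square per site was 2.09 to 2.99, so no pair was treated as 1 library. No list of other pluripotency genes could be placed on this build with the tables used here.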

Additional observations from a re-analysis of the deposited data

How the results depend on the processing

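From D6 on and between D12 and iPSCs, 51 of 60 counts of called window tiles lay within 1.5 times the count reported. The counts at D2 and D4 were 0 in each alternative, and as several of those fits called no tile in the genome, this says nothing about stability. The D6 count of 1 was 0 with a minimum difference of 25 points and with sites common to D0 and D6 only, and 0 to 1 when 1 library was left out. With the minimum of 25 points the counts at D8, D10 and D12 were 1, 2 and 1, and 1 between D12 and iPSCs, since the differences lay between 10 and 25 points. The difference of the window between iPSCs and D0 was -31.2 points with the unweighted mean and -38.6 points without strand-discordant CpGs, an alternative chosen after seeing the data. The window minus flanks at D12 against D0 was -11.2 points with flanks of 25 kb and -9.98 points without strand-discordant CpGs, but changed sign, to 0.251 points with flanks of 200 kb and 12.8 points with the unweighted mean, and ranged from -4.26 to 1.82 points when 1 library was left out. Coverage over flanks was 1.07 with flanks of 25 kb, 2.84 with 200 kb and 4.63 over all listed sites. Of 290 values of single tiles, called or not, 7 changed sign, each in a tile that was not called. With 1 library left out, the difference at D6 ranged from -5.27 to 3.72 points in the third tile, from -6.08 to 6.37 in the fourth and from -4.85 to 2.12 in the fifth. It was below 0 in the fourth tile without D0 replicate 1 (-0.637) or D6 replicate 2, and above 0 in the others without D6 replicate 1. The fourth tile was at -0.0814 points with strands merged and -0.554 points without strand-discordant CpGs. At D8 the third tile ranged from -5.95 to 0.921 points, the latter without D8 replicate 2. The cause of these changes was not tested. With strands merged or discordant CpGs left out the third tile had too few sites and 4 tiles were tested. The replicate numbers did not pair the libraries (correlation of replicate differences between groups -0.0144 to 0.00778 over 28 pairs of groups), and with replicate number as a block the counts of called tiles were 0, 0, 1, 3, 4, 4 and 3, as in the fit without the block. Depth limits the promoter and the upstream sequence, where a listed site had 10 to 37 reads.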
